A study of Mus musculus with 8 samples.

Results

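Paclitaxel (PTX) was compared with its vehicle over whole coronal brain sections of p16-3MR mice, profiled on Visium arrays that capture polyadenylated RNA on a grid of barcoded spots. Of the 8 sections in the series, the 2 labelled Control and the 2 labelled PTX were taken. The raw counts of each were summed over its kept spots, those with 200 or more genes detected and at most 30% of the unique molecular identifiers (UMIs, each counting 1 captured transcript) from mitochondrial genes. This left 10210 spots out of 21328 kept in all 8 sections. Both groups were labelled as male p16-3MR mice of 9 to 10 months, and all sections carry the same batch label. PTX mice had been injected intraperitoneally with 5 mg per kg of paclitaxel a day for 5 days, in 2 cycles with a pause of 7 days, and their brains were taken 6 months after the drug. Control mice had received DMSO and saline. Every mouse, Control included, carried the 3MR fusion protein under the promoter of p16Ink4a. The sources used here do not say whether the sections of a group came from different mice, so the p-values measure only the spread between sections, which may be technical.

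Paclitaxel is a taxane that binds beta-tubulin and stabilises microtubules, which arrests dividing cells in mitosis. Neurons depend on dynamic microtubules for transport along axons, and the drug is known for peripheral neuropathy and for cognitive complaints after treatment, although little of it crosses the blood–brain barrier. Cells that stop dividing after damage can become senescent, with a rise of the cell cycle inhibitor p16Ink4a and secretion of inflammatory factors, and the p16-3MR mouse was built to mark and remove such cells. The comparison asks which genes differ in brain tissue long after the drug, and how far such differences follow the part of the brain that each section holds.

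The kept spots numbered 2346 and 2571 in Control and 2558 and 2735 in PTX. Their UMIs summed to 19870666 and 33160865 in the Control pair and to 42886400 and 38112160 in the PTX pair. Control section 1 was the shallowest, with a median of 7583 UMIs per spot against 12655 in Control section 2 and 15715.5 and 13442 in the PTX sections. Both PTX sections were therefore deeper per spot than both Control sections. The other 4 sections, from mice given PTX and then ganciclovir (PTX+GCV) or ABT263 (PTX+ABT263), entered the fit only to share its estimate of the spread. The PTX+ABT263 sections had 754 and 695 UMIs of Xist, a transcript of the inactive X chromosome, and 17 and 0 UMIs of the Y-linked Ddx3y, against 0 to 1 and 711 to 1350 UMIs in the Control and PTX sections, which goes against their label as male. Without them 8 genes rose and 15 fell in whole sections, compared with 8 and 13 when they were kept, and 4 of the 8 and 11 of the 13 calls were the same genes. Rasal1, Tac2, Kcnip1, Pvalb, Adgrf5 and Neat1 then had adjusted p from 0.0533 to 0.0616 in edgeR.

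The sections cut through isocortex, hippocampus, thalamus, striatum and hypothalamus, but not in the same proportions. A spot is 55 µm wide and spots lie 100 µm apart, so each holds parts of several cells. Clustering the spots of all 8 sections gave 12 clusters, here called regions. Most took the name of the tissue whose markers led them. Shox2, Prkcd and Gbx2 led the thalamus, Adora2a and Drd2 were among the leading genes of the striatum, and Pmch, Hcrt and Oxt led the hypothalamus. A pair of clusters had no tissue's markers in sufficient number and are called by the gene of highest fold in each, the Myoc region along the rim of the sections and the Ucn3 region. The Myoc region held 3370 spots over the 8 sections, and C1ql3, Lypd1 and Lmo3 were also among its leading genes. In a finer clustering (resolution 0.3) Myoc led a separate cluster of 601 spots named meninges. The name Myoc region therefore does not mean meninges. Striatum took 5.97% and 6.50% of the spots of the Control sections and 7.62% and 9.40% of those of the PTX sections. The reticular thalamus and pallidum took 1.66% and 1.48% in Control and 2.15% and 2.38% in PTX. By UMIs the groups overlapped, with striatum at 6.12% and 4.86% in Control against 5.31% and 8.40% in PTX, and the reticular thalamus and pallidum at 1.70% and 0.79% against 1.48% and 2.18%. Even for the shares of spots, which did not overlap, 2 sections against 2 cannot give an exact permutation p below 0.333. The Myoc region took 22.2% of Control section 2 and 12.4% to 14.4% of the other 3 sections, and hippocampus took 4.08% of Control section 2 and 8.65% of Control section 1. These latter differences in spots lay within the Control group. The UMI shares of the Myoc region did not overlap, at 18.03% and 27.37% in Control against 13.88% and 13.67% in PTX. By UMIs, isocortex supplied 26.8% and 22.7% of the Control totals and 32.7% and 34.1% of the PTX totals, and hypothalamus 14.1% and 12.6% against 9.56% and 10.8%. By spots both overlapped, with isocortex at 25.0% and 18.6% in Control and 22.3% and 26.0% in PTX, and hypothalamus between 10.9% and 13.1% in all 4 sections.

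**Figure D1:**
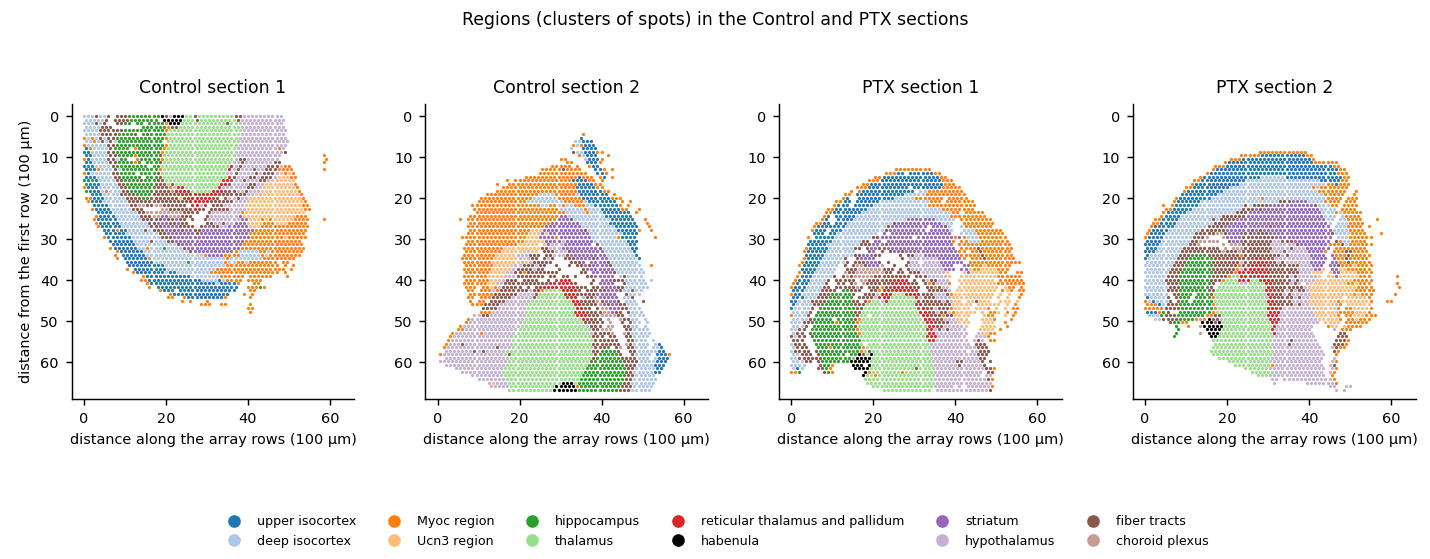
Kept spots of the Control and PTX sections at their place on the array, coloured by region, with both axes in units of 100 µm. The habenula (black) touches the border of the array in both Control sections, with 12 and 14 spots, and lies inside it in both PTX sections, with 21 and 19 spots.

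Over whole sections, 8 of 16671 genes tested rose with PTX (0.048%) and 13 fell (0.078%), at an adjusted p under 0.05 in edgeR's quasi-likelihood test. Every one of the 21 had both PTX sections on the same side of both Control sections, which held for 21.8% of all genes upward and 20.5% downward. The 21 were picked by a test on these same sections, so their lack of overlap describes them and adds no evidence. Levels below are CPM, counts per 1000000 UMIs after scaling the library sizes with edgeR's TMM factors, and differences are log2 fold changes of PTX over Control with their standard error (SE). Over all genes the median log2 fold change was 0.0054. At an unadjusted p under 0.05, 977 genes were higher and 1269 lower. In bulk sums of this kind, fewer cells of a type and less RNA per cell cannot be told apart.

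The rising genes were led in fold by transcripts of the habenula. Chrna3 (chr9:55010111-55026562, minus strand, build GRCm38) encodes a nicotinic acetylcholine receptor subunit that medial habenular neurons carry. It stood at 1.45 and 1.34 CPM in Control and at 4.50 and 4.35 CPM in PTX, a log2 fold change of 1.67 ± 0.23 (adjusted p = 0.0247 in edgeR). Nppa (chr4:148000722-148002079, plus strand), the natriuretic peptide precursor best known from heart atrium, went from 0.15 and 0.31 CPM to 1.32 and 1.34 CPM, a log2 fold change of 2.41 ± 0.38 (adjusted p = 0.0431 in edgeR). Tac2 (chr10:127724478-127731768, plus strand), the neurokinin B precursor, was at 29.4 and 20.5 CPM in Control and 42.4 and 47.5 CPM in PTX, a log2 fold change of 0.86 ± 0.14 (adjusted p = 0.0448 in edgeR). Nppa was near the detection limit in Control, and for none of these genes did the groups overlap.

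Lamp5 and Pvalb, both on the interneuron list, also rose. Lamp5, a membrane protein of neurogliaform interneurons and upper cortical layers, measured 116.5 and 100.4 CPM in Control and 160.1 and 169.9 CPM in PTX (log2 fold change 0.61 ± 0.09). Pvalb, the calcium-binding protein of fast-spiking interneurons and of the reticular thalamus, measured 217 and 209 CPM against 285 and 321 CPM (0.51 ± 0.08). Kcnip1, a calcium-binding partner of Kv4 potassium channels, measured 32.8 and 27.4 CPM against 41.7 and 45.6 CPM (0.54 ± 0.09). Its reads overlap Kcnmb1 on the opposite strand, and the sources used here do not say whether the counting used strand. Neat1, the long noncoding RNA around which nuclear paraspeckles form, measured 49.9 and 54.8 CPM against 69.7 and 69.9 CPM (0.41 ± 0.06). The last of the 8, Gm3764, is a gene model that the naming rule leaves out and was named after its values were seen. It is a long noncoding RNA gene that contains Mir9-1, and it measured 36.9 and 33.9 CPM against 49.9 and 48.9 CPM (0.48 ± 0.07).

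Among the falling genes, Myh7 (chr14:54970684-54994626, minus strand), a slow myosin heavy chain of heart and muscle, gave the smallest adjusted p. It was at 27.4 and 31.4 CPM in Control and 14.8 and 14.3 CPM in PTX, a log2 fold change of -1.02 ± 0.10 (adjusted p = 0.00496 in edgeR). Of the Myh7 UMIs of the 4 sections, 32.5% lay in the Myoc region and 23.5% in the Ucn3 region, so no single region held most of them. The gene Gm17428 and several antisense RNA genes lie on the opposite strand of Myh7, and reads of the strands cannot be told apart here. C1ql3, a secreted C1q-like protein of synapses, fell from 19.2 and 23.7 CPM to 9.91 and 10.3 CPM (-1.10 ± 0.15). Eps8l2, an actin regulator of the Eps8 family, fell from 19.3 and 23.5 CPM to 11.5 and 8.68 CPM (-1.09 ± 0.14). Amotl1, an angiomotin relative at cell junctions and in Hippo signalling, fell from 60.3 and 63.9 CPM to 38.3 and 34.9 CPM (-0.76 ± 0.09), and 61.8% of its UMIs lay in the thalamus. None of these showed any overlap between the groups.

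The remaining falling genes had log2 fold changes from -0.82 to -0.48. Phyhip, a brain protein that binds phytanoyl-CoA hydroxylase, went from 121 and 106 CPM to 67.9 and 72.0 CPM (-0.70 ± 0.09). Hpcal4, a neuronal calcium sensor of the visinin-like family, went from 417 and 363 CPM to 239 and 266 CPM (-0.62 ± 0.09). Nsmf, which carries signals from synaptic NMDA receptors to the nucleus, went from 392 and 366 CPM to 257 and 267 CPM (-0.53 ± 0.07). Rasal1, a GTPase-activating protein for Ras, fell by 0.48, Gda, the guanine deaminase, by 0.49, and Tspan9, a tetraspanin, by 0.48 on the log2 scale. Nnat, an imprinted membrane proteolipid whose gene lies within Blcap on the opposite strand, fell by 0.55. Nr2f2, the nuclear receptor COUP-TFII, fell by 0.82, from 63.3 and 54.5 CPM to 32.5 and 34.1 CPM. Adgrf5, an adhesion receptor of endothelium, fell by 0.67, from 20.6 and 20.8 CPM to 12.8 and 13.2 CPM.

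The whole-section calls leaned on single sections. Without PTX section 2 none of the 21 genes passed in edgeR (adjusted p 0.169 to 0.196) and no other gene did, with 966 higher and 1143 lower at an unadjusted p under 0.05, and without PTX section 1 Myh7 and Eps8l2 did, although all 21 kept their direction.

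**Figure D2:**
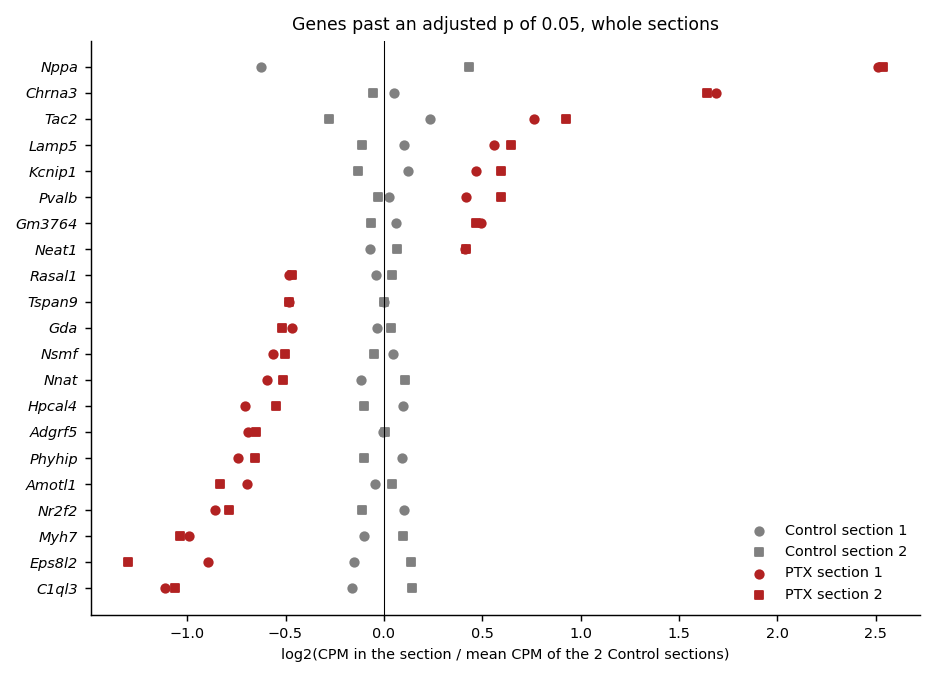
Log2 of the CPM in each section over the mean CPM of the Control sections, for the 21 genes called over whole sections, with a point per section and Control and PTX in different colours. For every gene the PTX points lie on one side of both Control points, and Nppa and Chrna3 lie farthest to the right.

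Each called gene was then set against the anatomy of the sections in 3 ways. The expected difference gives every region its mean level over the 8 sections and lets only the regions' UMI shares vary between sections. The equal-share difference gives every section the same mix of the tested regions. It is fitted with limma on log2(CPM + 1), where the CPM are not scaled by TMM factors. The third is edgeR within each region. The expected difference had the sign of the measured one for 18 of the 21 genes. It came to 0.67 for Nppa, 0.55 for Chrna3, 0.27 for Lamp5 and 0.22 for Pvalb, and to -0.25 for C1ql3 and -0.11 for Myh7. None of the 21 was matched in size by its expected difference.

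At equal shares, 20 of 16671 genes were higher with PTX (0.12%) and 40 lower (0.24%), and 14 of the 21 whole-section calls were among them. The equal-share values of Myh7 (-0.77), Amotl1 (-0.62), Phyhip (-0.68), Eps8l2 (-0.95), Hpcal4 (-0.54) and Nsmf (-0.51) passed, with adjusted p from 0.0016 to 0.0315 in limma. C1ql3 came to -0.71, Lamp5 to 0.37 and Kcnip1 to 0.46 and passed as well. Pvalb (0.37, adjusted p = 0.106 in limma), Tac2 (0.38, adjusted p = 0.266), Nnat (-0.33, adjusted p = 0.124), Neat1 (0.35, adjusted p = 0.133) and Rasal1 (-0.34, adjusted p = 0.106) did not pass. Chrna3 turned to -0.03 (adjusted p = 0.954 in limma) and the groups overlapped. Nppa came to 0.25 (adjusted p = 0.407 in limma), with levels of 0.12 and 0.17 CPM in Control and 0.38 and 0.34 CPM in PTX. At levels this low the added 1 CPM shrinks a log2 difference, so the value for Nppa cannot be set against its edgeR fold. The habenula and the choroid plexus were too small in some sections to enter the equal mix, so equal-share values leave their spots out. The median over all genes was 0.0374 at equal shares.

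**Figure D3:**
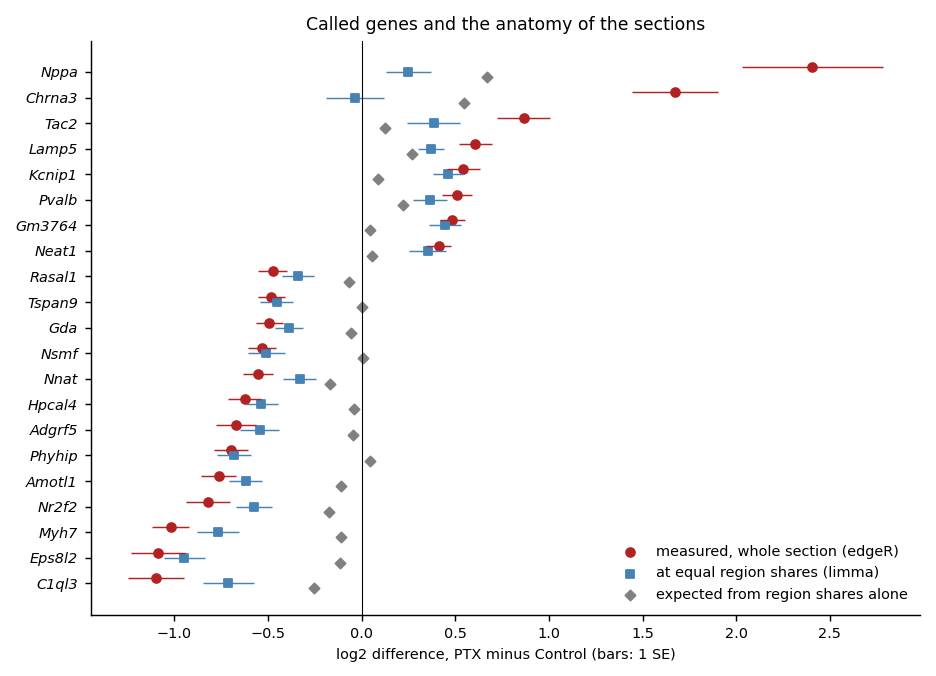
Log2 difference of PTX from Control for the 21 called genes, as measured over whole sections (edgeR), at equal region shares (limma) and the difference expected from region shares alone, with bars of 1 SE. As plotted, every falling gene lies nearer 0 at equal shares, from -0.68 against -0.70 for Phyhip to -0.33 against -0.55 for Nnat, and Chrna3 moves from 1.67 to -0.03. The edgeR values use TMM factors and the equal-share values do not. Without those factors Phyhip, Nsmf and Tspan9 measured -0.65, -0.48 and -0.43, nearer 0 than their equal-share values of -0.68, -0.51 and -0.45. The equal-share value of Nppa is shrunk by the added 1 CPM, and the equal mix leaves the habenula out.

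The habenula, a small epithalamic relay beside the third ventricle, held 65.1% of the Chrna3 UMIs and 67.5% of the Nppa UMIs of the 4 sections. It had 12 and 14 spots in Control and 21 and 19 in PTX. Those spots supplied 0.22% and 0.59% of the UMIs of the Control sections and 1.06% and 0.80% of those of the PTX sections. The UMI counts of single genes given next are not scaled for this difference. Chrna3 counted 0 and 7 UMIs in the habenula spots of the Control sections and 154 and 125 in those of the PTX sections. Nppa counted 0 and 3 against 43 and 37 UMIs there, and Tac2 0 and 34 against 675 and 692. Tac2 was also expressed outside the habenula. In the equal mix, which leaves the habenula out, Tac2 measured 23.6 and 21.5 CPM in Control and 26.8 and 32.8 CPM in PTX. Chrnb4, the receptor subunit that pairs with Chrna3, counted 0 and 4 against 93 and 62 UMIs. The habenular orphan receptor gene Gpr151 was present in all 4 sections, at 837 and 262 unscaled CPM (counts per 1000000 UMIs of the region, without TMM factors) in Control and at 392 and 341 in PTX. All 12 and all 14 Control habenula spots lay within 3 rows of the border of the capture array, whose rows run from 0 to 77, and none of the PTX habenula spots did. The Control sections thus hold habenula at the border with Gpr151 and hardly any Chrna3 or Tac2, and what lay beyond the border was not captured.

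With the habenula spots left out, an alternative added after these values were seen, 4 genes rose and 11 fell over whole sections. Chrna3 turned to -0.24 (adjusted p = 0.776 in edgeR), and Nppa (0.92, adjusted p = 0.442), Tac2 (0.24, adjusted p = 0.614) and Kcnip1 (0.44, adjusted p = 0.104) no longer passed. Rasal1 (-0.47, adjusted p = 0.059) and Adgrf5 (-0.67, adjusted p = 0.0573 in edgeR) were just outside the threshold with nearly the same fold. The other 15 genes, Myh7, C1ql3, Lamp5 and Pvalb among them, kept their calls.

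Cell classes were read from marker lists, each described by its genes called, its genes with both PTX sections beyond both Control sections, and its median log2 fold change. Among 14 thalamic neuron genes, 0 were called over whole sections, 9 lay below Control in both PTX sections and none above, with a median of -0.42. At an unadjusted p under 0.05 in edgeR 9 of them were lower, and DESeq2 called 3 lower. The expected median was -0.12 and the equal-share median -0.35, and Tnnt1 and Prkcd fell at equal shares by 1.13 and 1.02 (adjusted p = 0.00187 and 0.00457 in limma). Prkcd, a protein kinase C isoform of relay neurons, measured 243 and 344 CPM in the Control sections and 182 and 90.1 CPM in the PTX sections, so the PTX sections differed from each other as well. Of 20 interneuron genes Lamp5 and Pvalb rose, and 11 lay above and 2 below, with a median of 0.25 measured, 0.04 expected and 0.24 at equal shares. Of 14 striatal neuron genes 0 were called by edgeR or DESeq2, 5 were higher at an unadjusted p under 0.05, and 7 lay above, with a median of 0.36 measured, 0.13 expected and 0.25 at equal shares. Of 12 habenular genes Tac2 was called, with a median of 0.54 measured and 0.07 at equal shares. The equal mix leaves the habenula out, so it cannot show whether levels inside the habenula differed.

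The other neuronal lists had medians of 0.03 (layer 5), -0.01 (layer 6 and subplate), 0.0034 (upper layers), 0.04 (hippocampal) and -0.06 (hypothalamic peptides). Of their genes Lamp5 was called higher and C1ql3 lower.

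Non-neuronal classes were described the same way. Of 16 astrocyte genes 0 were called and 10 lay below, with a median of -0.23 (expected -0.02, equal shares -0.17). Of 20 endothelial genes 0 were called, 12 lay above and 1 below, with a median of 0.17 (expected -0.02, equal shares 0.23). Other vascular lists did not rise as much. The 9 endothelial subtype genes of the study had a median of 0.06, with 2 above and 1 below. The 19 angiogenesis genes tested had a median of -0.08, with 0 above and 6 below. Adgrf5, the endothelial receptor called lower over whole sections (-0.67), is not on the endothelial list. Cldn5, the claudin of brain endothelial tight junctions, measured 42.5 and 35.0 CPM in Control and 44.1 and 47.0 CPM in PTX (0.24 ± 0.09, adjusted p = 0.257 in edgeR). The 23 oligodendrocyte and myelin genes had a median of 0.12, the 18 microglial genes 0.05 and the 16 pericyte and smooth muscle genes 0.18, with 0 called in each. All 5 haemoglobin and red cell genes lay above in both PTX sections, with a median of 2.06 measured, 0.07 expected and 1.89 at equal shares. Hbb-bs, the adult beta globin, measured 39.2 and 32.0 CPM in Control and 166 and 169 CPM in PTX (2.24, adjusted p = 0.194 in edgeR). None of the 5 passed in edgeR or DESeq2, and all 5 were higher at an unadjusted p under 0.05. At that unadjusted level 10 astrocyte genes were lower and 7 endothelial genes higher, of which DESeq2 called 1 in each list, and 3 myelin genes were higher.

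**Figure D4:**
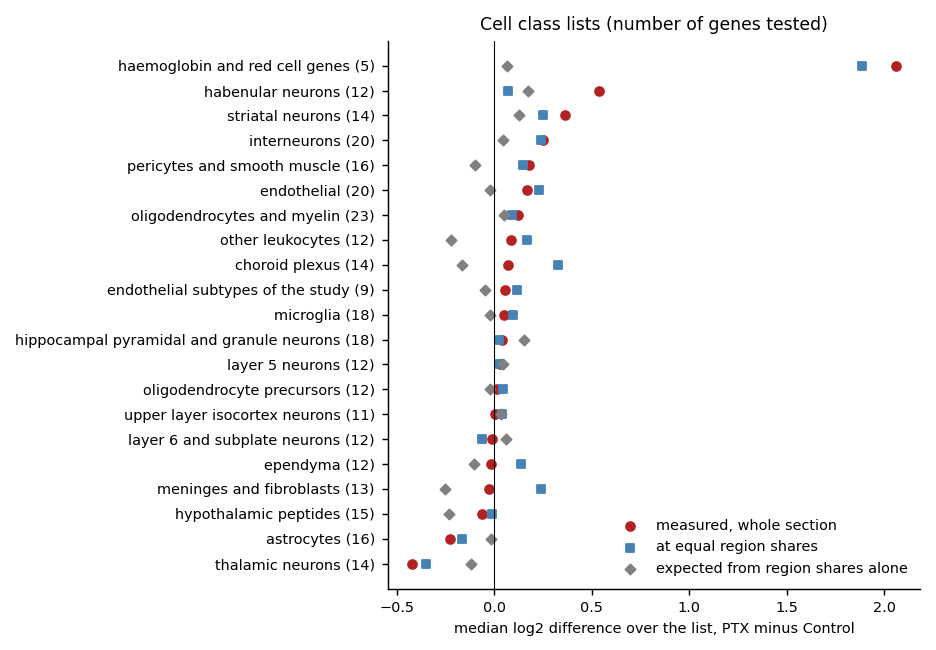
Median log2 difference of PTX from Control over each cell class list, as measured over whole sections, at equal region shares and the median expected from region shares alone, with the number of genes tested in brackets. The haemoglobin list stands at 2.06 and 1.89 with 0.07 expected, and the thalamic list stays at -0.35. The habenular list goes from 0.54 to 0.07 at equal shares, a mix that leaves out the habenula and the choroid plexus.

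Pathways tied to the drug or to senescence showed no gene called by edgeR over whole sections. Of 21 tubulin genes tested 0 were called, with a median of -0.03, 2 above and 4 below, and 3 were lower at an unadjusted p under 0.05. Tubb3, a neuronal beta-tubulin, measured 297 and 350.2 CPM in Control and 299.5 and 355 CPM in PTX. The 27 microtubule-associated proteins and stathmins had a median of -0.005, with 5 above and 8 below. Map2, which decorates dendritic microtubules, measured 414 and 309 CPM against 254 and 287 CPM (-0.41 ± 0.12, adjusted p = 0.179 in edgeR). The 25 DNA damage and repair genes had a median of 0.04 and the 25 p53 targets and cell cycle inhibitors -0.03. The 30 genes tested of the secretory phenotype of senescent cells had a median of 0.07, with 7 above and 7 below. The 18 drug efflux and xenobiotic genes had a median of 0.07, and Abcb1a, the P-glycoprotein of the blood–brain barrier, measured 13.6 and 11.9 CPM against 14.1 and 12.8 CPM. In these 6 lists DESeq2 called 1 secretory gene higher and 1 microtubule-associated and 1 p53 list gene lower.

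The senescence marker panel of the study was measured gene by gene. Cdkn2a, which encodes p16Ink4a, had 2 UMIs in Control section 1 and 5 in Control section 2, against 17 and 10 with PTX, which is 0.10 and 0.15 unscaled CPM against 0.40 and 0.26. The levels did not overlap, but the gene was too sparse to enter the test, and the counts are of whole sections of 2346 or more spots. Cdkn1a, the gene of p21 and a target of p53, measured 11.7 and 13.3 unscaled CPM in Control and 12 and 15 in PTX, and the groups overlapped. Of the panel's 10 genes 8 were tested, 0 were called by edgeR or DESeq2 and 1 was higher at an unadjusted p under 0.05, with a median log2 fold change of 0.05.

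Interferon response and MHC class I genes lay above Control more often than below, with 13 of 23 above, 1 below and 0 called, at a median of 0.24 (expected -0.03, equal shares 0.26). The immediate early genes, transcribed within minutes of neuronal activity, went the other way, with 2 of 24 above, 10 below and 0 called, at a median of -0.20. At an unadjusted p under 0.05 in edgeR 6 interferon and MHC genes were higher, while 9 immediate early genes were lower and 1 higher, and DESeq2 called 1 immediate early gene each way. The immediate early genes had an expected median of 0.10 and an equal-share median of -0.26, and Egr4 and Junb passed at equal shares. The 54 cytosolic ribosomal protein genes had a median of 0.05 and the 48 nuclear oxidative phosphorylation genes 0.03. Over all genes tested, 21.8% lay above and 20.5% below in both PTX sections, and 0.048% were called higher and 0.078% lower, which is the background for the counts of every whole-section list.

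Within regions, the thalamus held most of the calls. It gave 912 of 13149 genes (6.94%), 453 higher and 459 lower, which is 72.2% of the 1264 calls summed over the 10 regions tested. Upper isocortex gave 133 of 13063 (1.02%), 27 higher and 106 lower, and deep isocortex 64 of 13341 (0.48%), 10 higher and 54 lower. The Myoc region gave 56 of 13559 (0.413%), the striatum 35 of 11091 (0.316%), the Ucn3 region 28 of 11798 (0.237%) and the reticular thalamus and pallidum 24 of 6865 (0.35%). Fiber tracts gave 4 of 9806 (0.0408%), hypothalamus 4 of 12992 (0.0308%) and hippocampus 4 of 11955 (0.0335%). Leaving out 1 section at a time gave 26 to 249 calls in upper isocortex, 5 to 115 in deep isocortex, 9 to 17 in striatum and 0 to 120 in hypothalamus. DESeq2 called 0 genes in striatum, with 117 higher and 184 lower at an unadjusted p under 0.05, and 1 in the reticular thalamus and pallidum. The hypothalamus had 0 calls in edgeR without PTX section 2, with 373 higher and 420 lower at an unadjusted p under 0.05, and 120 without Control section 1. The thalamus count was 341 without PTX section 2, 369 without Control section 1, 643 without Control section 2 and 1129 without PTX section 1. The Myoc and the Ucn3 regions had 0 calls in edgeR without either PTX section, and 797 and 137 without Control section 1. At an unadjusted p under 0.05 they then had 597 to 621 and 354 to 360 genes higher and 575 to 637 and 430 to 454 lower.

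In the thalamus, genes of the thalamic neuron list fell. Of 14 such genes 8 fell and none rose, where 3.49% of all genes tested there fell and 3.45% rose, with a median of -0.38 against 0.007 for all genes there. Gbx2, which was among the leading genes of the thalamus but is not on this list, went the other way. At equal region shares it was at 6.53 and 8.20 CPM in Control and 11.1 and 16.1 CPM in PTX (0.79, adjusted p = 0.0426 in limma). Tnnt1, a slow troponin T, was at 232 and 293 CPM in Control and 109.98 and 109.82 CPM in PTX (-1.27 ± 0.17). Prkcd was at 1789 and 1775 CPM against 1117 and 635 CPM (-1.02 ± 0.17). Aldh1a1, a retinaldehyde dehydrogenase, was at 231 and 198 CPM against 105 and 95.6 CPM (-1.09 ± 0.12). Adgrf5 was at 55.4 and 67.0 CPM against 18 and 19.4 CPM (-1.74 ± 0.20). The groups overlapped for none of these, and Prkcd was lowest in PTX section 2.

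The thalamic genes with the smallest adjusted p upward were Necab1, Nxph1 and Maob. Necab1, a neuronal calcium-binding protein, was at 136 and 124 CPM in Control and 286 and 352 CPM in PTX (1.30 ± 0.12, adjusted p = 2.24e-05 in edgeR). Nxph1, a secreted ligand of neurexins, went from 22.4 and 28.4 CPM to 64.4 and 80.9 CPM (1.46 ± 0.15). Maob, the monoamine oxidase of astrocytes and serotonin neurons, went from 38.3 and 32.1 CPM to 95.7 and 139 CPM (1.76 ± 0.19). Calb2 (calretinin), carried by midline thalamic and habenular neurons, was at 85.2 and 115 CPM in Control and at 219 and 523 CPM in PTX, so the PTX sections themselves lay apart. Gal, Oxt, Avp and Sst of 12 hypothalamic peptide genes tested rose in the thalamus, where 3.45% of all genes did. Gal was at 4.08 and 2.90 CPM in Control and 18.5 and 15.1 CPM in PTX. Which thalamic nuclei each section holds was not tested.

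Gene groups with other roles moved in the thalamus too. Of 54 ribosomal protein genes 25 rose and none fell there, 50 lay above in both PTX sections, and the median was 0.37. Over all genes tested in the thalamus 24.4% lay above and 24% below, and 3.45% were called higher and 3.49% lower. Rpl10 was at 216 and 276 CPM in Control and 397 and 438 CPM in PTX (0.75 ± 0.11). Of 26 glutamate receptor and postsynaptic genes 3 rose and 11 fell. Of 23 myelin genes Cldn11, Olig2, Mobp, Ermn and Mbp fell and none rose. Both C1ql3 and Hpcal4, which fell over whole sections, rose in the thalamus. C1ql3 went from 2.45 and 2.90 CPM there to 5.68 and 15.6 CPM (1.87 ± 0.47) and Hpcal4 from 48.9 and 57.8 CPM to 64.9 and 103 CPM (0.61 ± 0.16). In the Myoc region C1ql3 fell from 56.2 and 61.6 CPM to 24.7 and 24.2 CPM (-1.28 ± 0.14). That region held 51.6% of the C1ql3 UMIs of the 4 sections. In the finer clustering (resolution 0.3) an unnamed cluster also had C1ql3 and Lypd1 among its leading genes. That cluster took 6.99% and 6.65% of the UMIs in PTX, on average -9.18 percentage points from Control, without overlap. The fit in the Myoc region and the equal-share value do not hold the share of that cluster fixed. Its part in the fall of C1ql3 was not tested.

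Immediate early genes fell in isocortex and striatum. In deep isocortex Junb, Egr4, Fosb, Arc, Btg2, Egr2, Npas4, Nr4a2, Fos and Jun fell, 10 of the 24 tested against 0.405% of all genes there, none rose, and the median was -0.47. In upper isocortex 8 of 24 fell against 0.811% of all genes, at a median of -0.50, and in striatum Fos, Junb, Btg2 and Nr4a3 fell, 4 of 23 against 0.261%, at -0.45. In the thalamus 3 of 23 fell (Dusp1, Nr4a1 and Egr3) against 3.49% of all genes, at a median of -0.00, and none was called in the Myoc region. Btg2, an antiproliferative cofactor, and Junb, a subunit of AP-1, are the members that fell in 3 regions, and their promoters are printed because such genes are known to be switched on through short upstream elements. The sequences are from RefSeq on GRCm38.p6, 250 bases before to 50 bases after the start, on the minus strand at chr1:134079106-134079405 for Btg2 and at chr8:84978699-84978998 for Junb. Capitals mark the CRE TGACGTCA and its shorter form TGACG, searched on both strands.
Btg2: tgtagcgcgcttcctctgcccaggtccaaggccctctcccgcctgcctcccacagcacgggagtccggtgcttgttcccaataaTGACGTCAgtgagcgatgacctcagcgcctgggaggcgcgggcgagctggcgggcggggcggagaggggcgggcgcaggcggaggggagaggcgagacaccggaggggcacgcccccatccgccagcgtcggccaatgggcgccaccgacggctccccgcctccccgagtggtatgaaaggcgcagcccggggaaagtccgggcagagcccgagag
Junb: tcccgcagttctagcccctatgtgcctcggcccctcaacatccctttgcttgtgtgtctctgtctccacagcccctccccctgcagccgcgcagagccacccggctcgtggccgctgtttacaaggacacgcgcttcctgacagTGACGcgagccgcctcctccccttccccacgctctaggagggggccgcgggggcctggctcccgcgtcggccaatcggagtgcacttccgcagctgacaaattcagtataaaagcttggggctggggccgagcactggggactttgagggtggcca

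The Btg2 window holds 1 full CRE, inside which both of its TGACG matches lie, and the Junb window holds 1 TGACG. Of 32851 promoter windows of that length, 588 (1.79%) hold TGACGTCA and 6837 (20.8%) TGACG. The CArG box, the serum response element, was found in neither window and in 535 of all windows (1.63%). A match of letters is a description of the window and not evidence that a factor binds there.

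The levels of these genes differed between the Control sections as well. Junb in deep isocortex was at 259.9 and 153 CPM in Control and 115 and 82.3 CPM in PTX (-1.04 ± 0.16), and it no longer passed without Control section 1 (adjusted p = 0.127) or without PTX section 2 (adjusted p = 0.0993 in edgeR). Btg2 in upper isocortex was at 72.6 and 20.9 CPM in Control and at 20.8 and 11.6 CPM in PTX (-1.51 ± 0.32), so Control section 2 and PTX section 1 were at the same level. Egr4, a zinc-finger factor of the Egr family, was steadier in upper isocortex, at 122 and 146 CPM in Control and 78.0 and 71.3 CPM in PTX (-0.84 ± 0.12). Egr4 passed there without any 1 of the 4 sections. Npas4, a factor tied to synaptic activity, went from 73.3 and 32.0 CPM to 21.1 and 16.4 CPM, and Fos in striatum from 67.4 and 46.2 CPM to 25.5 and 17.4 CPM.

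Further genes were called in isocortex. Phyhip fell in upper and deep isocortex by 0.73 in each, and in striatum by 0.79. Hpcal4 fell in upper isocortex from 454 and 412 CPM to 245 and 254 CPM (-0.80 ± 0.12). Pvalb rose in deep isocortex from 223 and 242 CPM to 376 and 398 CPM (0.73 ± 0.10), with Cox6a2, a cytochrome oxidase subunit rich in these interneurons, at 0.65 ± 0.11. In the reticular thalamus and pallidum Pvalb stood between 3943 and 4246 unscaled CPM in all 4 sections, with overlap. Of 16 astrocyte genes Slc1a3, Slc1a2, Glul and Mlc1 fell in upper isocortex, where 0.811% of all genes did. Slc1a2, the main glutamate transporter of astrocytes, went there from 2244 and 1938 CPM to 1405 and 1534 CPM (-0.51 ± 0.10). Of 23 myelin genes 5 rose in upper isocortex, where 0.207% of all genes did, and 6 in the Myoc region, where 0.251% did. Mag, a myelin adhesion protein, measured 25.4 and 41.8 CPM in upper isocortex in Control and 62.1 and 66.3 CPM in PTX (0.94 ± 0.15).

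Ttr, the thyroxine carrier secreted by choroid plexus epithelium, had the smallest adjusted p in isocortex. In upper isocortex it went from 109 and 127 CPM to 703 and 625 CPM (2.49 ± 0.14, adjusted p = 3.38e-11 in edgeR), and in deep isocortex from 155 and 326 CPM to 1082 and 1134 CPM (2.18 ± 0.30). Over whole sections Ttr measured 2671 and 2322 CPM in Control and 2026 and 2792 CPM in PTX, with overlap. In the equal mix of regions, which leaves the choroid plexus spots out, Ttr was at 253 and 242 CPM in Control and 477 and 576 CPM in PTX (1.08 ± 0.13, adjusted p = 0.00186 in limma). In the choroid plexus spots Ttr took 205260 and 238330 unscaled CPM in Control and 208900 and 236630 in PTX, and in the fiber tracts it took 1985 and 1770 against 1601 and 2123. Choroid plexus spots made up 0.85% and 0.89% of Control and 1.09% and 0.84% of PTX sections. The part of the choroid plexus in the isocortical values was not tested.

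Haemoglobin transcripts rose within regions. In hippocampus Hbb-bs went from 13.5 and 5.48 CPM to 249 and 318 CPM (5.06 ± 0.36), and Hba-a1 from 13.5 and 1.83 CPM to 126 and 151 CPM (4.50 ± 0.41). Hba-a1, Hba-a2, Hbb-bs and Hbb-bt rose in hippocampus, thalamus and the Myoc region, with log2 fold changes of 3.07 to 5.06. These 4 genes make up all the calls in hippocampus. Control section 1 had a hippocampal median of 2602 UMIs per spot against 14338.5 to 20134 in the other 3 sections. Whether the sections held different amounts of blood was not tested.

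A few abundant transcripts fell in region after region without passing over whole sections in edgeR. Lars2, a mitochondrial leucyl-tRNA synthetase, fell in 8 of the 10 regions, by 1.37 to 2.98 on the log2 scale. Gm42418 (chr17:39846958-39848788), a transcript that overlaps an annotated ribosomal RNA on the opposite strand, fell in 7. Cdr1os, the host transcript of the circular RNA of the Cdr1 locus, fell in 6, although Cdr1 lies on its opposite strand and its reads may be counted with it, and Malat1, a nuclear long noncoding RNA, in 5. Over whole sections Gm42418 measured 3835 and 1738 CPM in Control and 599.7 and 759 CPM in PTX (-2.04, adjusted p = 0.0902 in edgeR). Lars2 measured 720 and 230 CPM against 84.8 and 116 CPM (-2.24, adjusted p = 0.0902 in edgeR). Malat1 measured 421 and 415 CPM against 239 and 215 CPM (-0.88, adjusted p = 0.0955 in edgeR). At equal region shares Malat1 (-0.91, adjusted p = 0.00876), Gm42418 (-1.86, adjusted p = 0.027), Lars2 (-1.99, adjusted p = 0.0279) and Cdr1os (-1.10, adjusted p = 0.0279) passed in limma. Control section 1, the shallowest section, was the highest for Gm42418 and Lars2, and depth moved with these levels, its part in them not being tested.

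**Figure D5:**
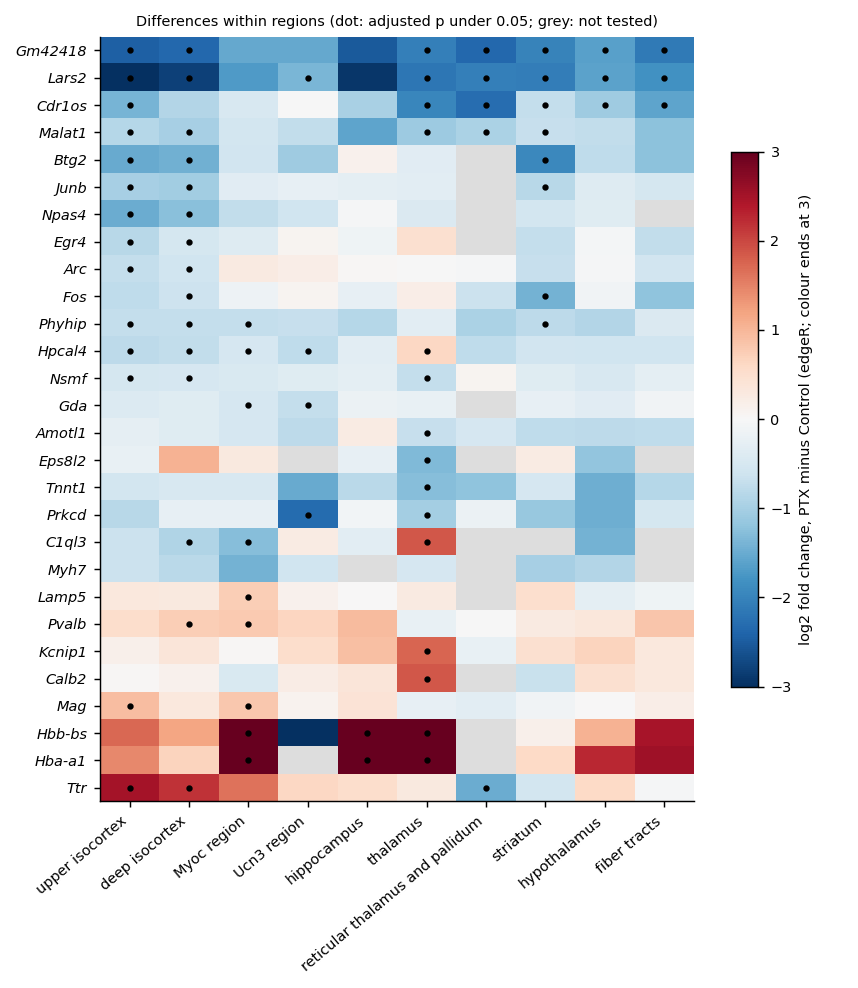
Log2 fold change of PTX over Control within each tested region for the genes named in the text (colour, ending at 3 either way), with a dot where the adjusted p was under 0.05 and grey where the gene was not tested. Lars2 and Gm42418 are blue across the regions, immediate early genes carry dots in isocortex and striatum, C1ql3 and Hpcal4 are red in the thalamus, and haemoglobin genes are red in hippocampus, thalamus and the Myoc region.

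In the remaining regions the calls were few. In the striatum Fxyd6, a regulator of the sodium pump, fell from 71.7 and 66 CPM to 32.1 and 24.6 CPM (-1.30 ± 0.19), and Rxrg, a retinoid receptor, rose from 38.4 and 31.4 CPM to 76.1 and 71.0 CPM (1.09 ± 0.24). In the Ucn3 region Nefm, a neurofilament subunit, rose from 61.4 and 55.3 CPM to 122 and 123 CPM (1.06 ± 0.13), and Pdyn, the dynorphin precursor, fell from 105 and 148 CPM to 52.7 and 51.8 CPM (-1.25 ± 0.16). In the Myoc region Lamp5 rose from 83.6 and 72.5 CPM to 132 and 125 CPM (0.73 ± 0.10). Sim1, a factor of hypothalamic and amygdalar neurons, stood there at 0 in both Control sections and at 4.45 and 6.64 CPM in PTX. In the reticular thalamus and pallidum Sst, the somatostatin precursor, rose from 1081 and 863 CPM to 1283 and 2158 CPM (0.82 ± 0.14), mostly through PTX section 2. In the hypothalamus Reln, the extracellular protein reelin, rose from 12.3 and 8.69 CPM to 28.8 and 43.7 CPM (1.82 ± 0.25).

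Hypothalamic peptides differed between sections of the same group. Hcrt, the orexin precursor of the lateral hypothalamus, took 3508 and 1.2 unscaled CPM of the region in Control and 128 and 11.2 in PTX. Pmch, the melanin-concentrating hormone precursor of the same area, took 5447 and 419 against 513 and 3.16. Avp, the vasopressin precursor, took 834 and 0.72 against 3016 and 1174. Hcrt fell in upper isocortex, striatum and the Ucn3 region, where Control section 1 was the only section above 2 CPM, and that section also led in the hypothalamus. For Hcrt the Control sections were the highest and the lowest of the 4, so the sections of 1 group differed more than the groups did.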

How the data were processed

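Spatial RNA libraries of 8 coronal sections of 10 µm were used. Per the submitters' processing notes the authors ran Space Ranger and Seurat 4.0 on mm10, and they deposited raw UMI counts per gene and spot, which were not normalized. Whether the counting used strand is not given in the sources used here. Spots outside tissue, with under 200 genes or with over 30% mitochondrial UMIs were left out, and counts were summed per section, which gave 19870666 to 42886400 UMIs in the Control and PTX sections.

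Sums were fitted over all 4 groups with edgeR 4.0.16 in R 4.3.3 (filterByExpr, TMM, glmQLFit and glmQLFTest, PTX against Control, Benjamini-Hochberg adjustment over all genes tested, threshold 0.05), without covariates. Spots were integrated and clustered with Seurat 5.3.0 on 2000 genes and 20 components at resolution 0.15. A cluster took a tissue's name when 2 or more of its markers were among the 10 genes with the highest fold and enough of them were raised 1.5-fold. Regions with 20 or more spots in every section were summed and fitted the same way. Equal-share levels were fitted with limma 3.58.1 on log2(CPM + 1). DESeq2 1.42.0, other scalings, filters, spot sets, cluster resolutions, a replicate block and leaving out each section were tried as alternatives. The scripts for the fits were tested on simulated data.

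Named were every gene called over whole sections that is not a Gm or Rik model, the 3 higher and 3 lower genes of smallest adjusted p in each region, the 5 each way at equal shares, up to 4 genes a list and the senescence panel; any other gene named was chosen after its values were seen. The comparison and its gene lists were chosen with earlier results of these data known. Gene positions are from GENCODE vM21 on GRCm38. A few genes are not reported here.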

Additional observations from a re-analysis of the deposited data

How the results depend on the processing

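Over whole sections, where 8 genes rose and 13 fell, DESeq2 gave 27 and 125, unscaled totals 17 and 37, no filter on low counts 314 and 560, and a fit of the PTX and Control sections alone 17 and 49. With a replicate block the counts were 0 and 2 (the deviations of same-numbered sections correlated at -0.008, so the numbers are not taken as pairs). Without the habenula spots they were 4 and 11, and Chrna3 turned to -0.236. Leaving out 1 section at a time gave 0 to 18 higher and 0 to 60 lower. The 1264 calls summed over regions became 674 with DESeq2 and 451 to 1499 without 1 section. At equal shares, where 20 rose and 40 fell, a minimum mean of 5 CPM left 11 higher, and leaving out 1 section gave 2 to 37 higher and 8 to 248 lower. Differences in region share, PTX minus Control in percentage points of spots, moved for choroid plexus from 0.094 to 0.392 with Leiden clusters and to -0.169 by UMIs, for the reticular thalamus and pallidum from 0.693 to 0.424 with Leiden clusters, and by UMIs for habenula from 0.23 to 0.524, for hypothalamus from -0.212 to -3.18, for isocortex from 2.35 to 8.65, for striatum from 2.28 to 1.37, where the groups then overlapped, and for hippocampus from -0.21 to 2.02, a turn of sign.

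Of the values of called genes under the alternatives, 268 kept their direction and side of the threshold, 109 lost the call and 1 turned. With every section thinned to the 19870666 UMIs of Control section 1, 6 genes rose and 11 fell over whole sections. Sparse genes such as Cdkn2a were not tested in the main fit, at full depth.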
